A study of Mus musculus with 3 samples.

Results

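Complement is a cascade of secreted proteases and their substrates that marks cells and immune complexes for removal. In the classical route C1r activates C1s, and C1s then cleaves C4 and C2, whose fragments form the enzyme that cleaves C3. The small fragments released from C3 and C5 are peptide signals read by the receptors encoded by C3ar1 and C5ar1, while Serping1 encodes C1 inhibitor, the serpin that blocks C1r and C1s. The liver supplies most plasma complement, and fibroblasts and macrophages also make components locally.

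The genes described here are C1s, C2, C3, C4b, Serping1, C3ar1 and C5ar1, which are complement components, an inhibitor and receptors outside the C1q family. They were found by the gene name printed with each probe of the array, with every probe kept. This gave 7 genes with 11 probes, out of 27656 gene names on 41174 probes. C1s, C2, C3 and C3ar1 had 2 probes each and the other 3 genes had 1.

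The study compared mouse embryonic stem (ES) cells with mouse embryonic fibroblasts (MEF). ES cells are pluripotent cultured cells derived from the early embryo, here grown untreated in knockout medium with serum and leukemia inhibitory factor. MEF are mesenchymal cells, here grown in serum medium, and the labels give neither strain nor line nor passage for either culture. On each of 3 two-colour oligonucleotide arrays, RNA of ES cell replicate 1, 2 or 3 was labelled with Cy3 and MEF RNA with Cy5, with no dye swap, so a dye bias of a single probe stays in its ratio. The series design text gives the Cy5 sample another name in one place; the sample labels, which say MEF, were followed.

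The median signal over all gene spots of an array lay between 398 and 421 for ES cells and between 381 and 391 for MEF. All 9 ES cell markers looked up were higher in ES cells, between Utf1 at 2.85 and Zfp42 at 6.33 (log2 ES cells over MEF), and all 10 fibroblast markers were lower, between Thy1 at -2.52 and Col1a1 at -8.10. Averaging all probes of a gene gave -5.93 for Col1a1 and -1.95 for Thy1, with Pdgfra then highest of these markers at -1.78. The summed level of the fibroblast markers was 57543 to 58235 in ES cells and 2044134 to 2070912 in MEF. Whether replicates 1, 2 and 3 of the ES cells were grown separately is not stated, so each p-value covers array-to-array spread that could be purely technical. MEF enters as a single control whose variation no test takes in. Calls required both a change of 2-fold or more and an adjusted p below 0.05 (limma, Benjamini-Hochberg over 19488 genes). Throughout, above background means flagged by the scanner software as well above background, and below background means without that flag.

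The probe sequences show which stretch each signal was read from. The C1s probe of lower signal is shown beside the only probe of its close relative, written C1sb in the files (current symbol C1s2), with capitals for the bases that are the same in both when the probes are laid over each other without gaps. Both are written 5′ to 3′ and map to the minus strand of mouse build mm7.
C1s, chr6:124556317-124556376: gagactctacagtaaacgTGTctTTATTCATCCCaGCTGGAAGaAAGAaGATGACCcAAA
C1sb, chr6:124650521-124650580: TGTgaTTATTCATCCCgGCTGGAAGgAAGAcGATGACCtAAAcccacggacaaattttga
Of 42 bases laid over each other, 36 were the same. The other C1s probe, which gave the brighter signal, shared 21 of 49 bases with the C1sb probe at best. That probe reads another stretch of C1s than the one shown. Neither C1s probe was laid over the whole C1s2 transcript, so how far either can read it was not tested.

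The only C4b probe is listed in the files against transcripts of both C4b and its neighbour C4a, the sex-limited relative of C4b, and so is the only C4a probe. A level from either cannot be split between the 2 genes. They are shown for that reason.
C4b, chr17:32815561-32815620: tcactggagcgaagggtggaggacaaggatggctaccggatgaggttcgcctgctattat
C4a, chr17:32912160-32912219: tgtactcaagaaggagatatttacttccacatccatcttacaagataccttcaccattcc
The 2 probes read different stretches, with 20 of 60 bases the same at best. The single probes of C5ar1 and Serping1, on which those genes rest alone, are these.
C5ar1, chr7:14010926-14010985: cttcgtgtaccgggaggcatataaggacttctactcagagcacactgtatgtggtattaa
Serping1, chr2:84609527-84611033: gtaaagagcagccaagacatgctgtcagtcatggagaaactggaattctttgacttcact
The Serping1 probe has 60 bases but spans 1507 bases of the genome. No annotation of mm7 was used, so exons were not assigned.

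Of the 7 genes, 4 were called lower in ES cells, namely C3ar1, C1s, C2 and C5ar1, and 0 were called higher. Among all genes tested 42.8% were called, 22.4% lower and 20.4% higher. C3, Serping1 and C4b were not called. Without the fold minimum 6 of the 7 had an adjusted p under 0.05 and a negative ratio, but so did 49.5% of all genes, and 95.4% of all genes had such a p in either direction. The median log2 ratio of the 7 genes, which is that of C5ar1, was -1.21, against -0.050 over all genes tested. On all 3 arrays 6 genes were lower in ES cells, and C4b was not. The share of all genes tested that were lower on all 3 arrays was not counted.

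**Figure D1:**
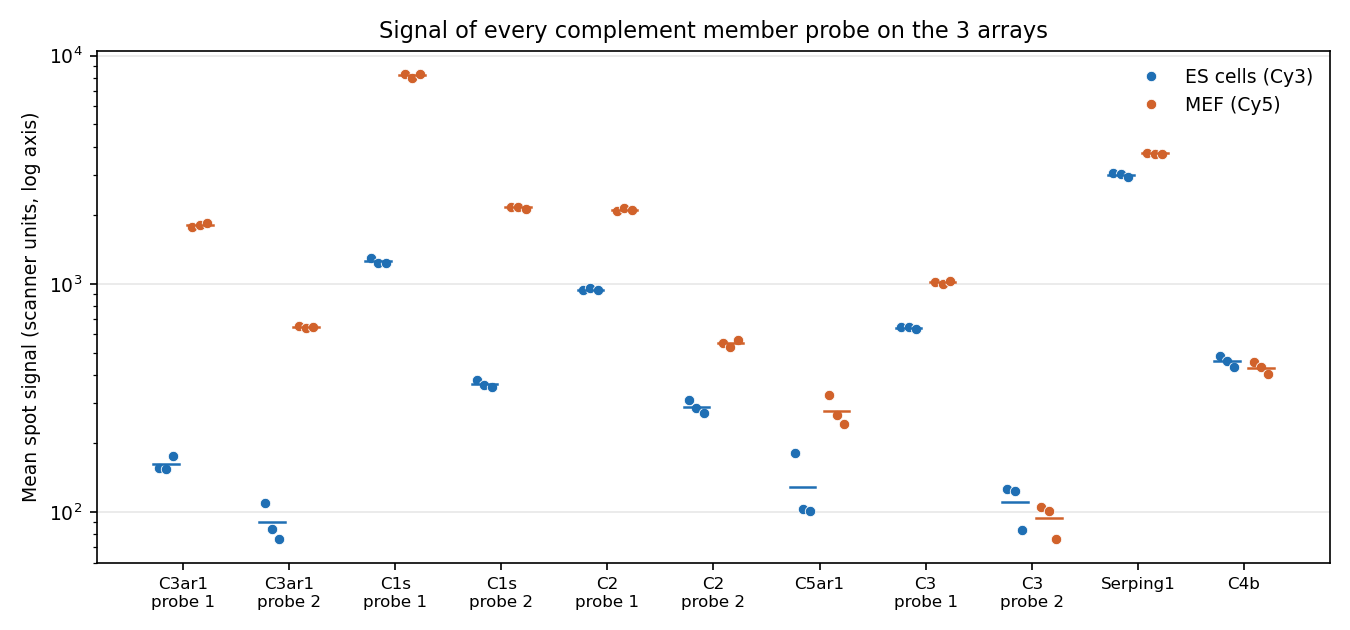
Mean spot signal (scanner units, log axis) of each of the 11 probes in ES cells (Cy3, left of each pair) and MEF (Cy5, right) on the 3 arrays, with points for arrays and bars for their mean; levels of different probes cannot be compared. C1s probe 1 lies between 1233 and 1297 in ES cells and between 8016 and 8315 in MEF, while the C4b points of ES cells lie slightly above those of MEF.

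C1s encodes the protease that cleaves C4 and C2. Its brighter probe, on chromosome 6 of mm7 from 124555678 to 124555737, gave mean spot signals of 1297, 1236 and 1233 in ES cells on arrays 1, 2 and 3, against 8307, 8016 and 8315 in MEF. Before normalization the groups were far apart on every array, and both were above background. How many of all genes stand this far apart was not counted. The log2 ratios of ES cells over MEF were -2.87, -2.89 and -2.90, with a mean of -2.88 ± 0.016 (SD, n = 3 arrays). C1s was thus 7.38-fold lower in ES cells (adjusted p = 1.69e-07, limma), and 4.32% of all genes tested had a lower ratio. The other probe gave 381, 359 and 354 in ES cells, against 2178, 2176 and 2133 in MEF, and a ratio of -2.71 ± 0.053. The probes differed by 0.18 ± 0.053 on the log2 scale (SD, n = 3 arrays), with the same sign on all 3 arrays.

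The relative C1s2 stood at -0.81 ± 0.030 by the C1sb probe shown above and was not called. Its signal was above background on all 3 arrays in MEF and on 1 array in ES cells, and the scanner software's own processed signals gave -1.60. C1s2 was called with those signals and with the background correction without an offset (-1.12), so its non-call depends on the processing.

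C2 encodes the protease that C1s cleaves and that carries the catalytic site of the C3-cleaving enzyme. Its brighter probe, on chromosome 17 from 32958754 to 32958813, gave 936, 960 and 936 in ES cells, against 2091, 2156 and 2108 in MEF. These signals, taken before normalization, did not overlap between the groups. The share of all genes that separate in this way was not counted. The log2 ratios were -1.33, -1.33 and -1.29, with a mean of -1.32 ± 0.024 (SD, n = 3 arrays), so C2 was 2.50-fold lower in ES cells (adjusted p = 6.78e-07, limma). The dimmer probe lay nearer to the fold minimum, with -0.98 on array 1, -1.03 on array 2 and -1.16 on array 3 and a mean of -1.06 ± 0.089. It is printed here because its coordinates on mm7 span 176 bases for 60 bases of probe.
C2, chr17:32959305-32959480: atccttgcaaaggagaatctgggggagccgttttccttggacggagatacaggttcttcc

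C3 encodes the central component, whose large fragment binds covalently to surfaces. Its brighter probe, on chromosome 17 from 55414567 to 55414626, was spotted 10 times on each array, more often than any other probe of these genes. The 10 spots ranged from 565 to 759 in ES cells and from 888 to 1165 in MEF on array 1. On array 2 they ranged from 588 to 733 in ES cells and from 882 to 1116 in MEF, and on array 3 from 556 to 713 in ES cells and from 889 to 1163 in MEF. In these signals before normalization, no spot of ES cells reached the lowest spot of MEF on its array. The 10 spots repeat 1 probe on the same array, and the share of all probes that separate in this way was not counted. The spot means gave log2 ratios of -0.80, -0.78 and -0.81, and a mean of -0.80 ± 0.015 (SD, n = 3 arrays). C3 was therefore 1.74-fold lower in ES cells with an adjusted p of 1.75e-06 (limma), which is below the fold minimum and not a call.

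The other C3 probe was well above background in neither channel on any array. It gave 126, 123 and 83.1 in ES cells, against 105, 101 and 75.8 in MEF, and was not tested. It spans 158 bases of the genome and shows a stretch of C3 from which no signal well above background came.
C3, chr17:55435522-55435679: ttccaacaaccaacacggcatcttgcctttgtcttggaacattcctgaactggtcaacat
Everything said of C3 thus rests on 1 of its 2 probes.

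C4b encodes the fourth component, a relative of C3 and the other substrate of C1s. It gave 485, 457 and 434 in ES cells, against 454, 431 and 402 in MEF. The log2 ratios were -0.066, -0.064 and 0.0042, so the arrays did not share a sign after normalization. The mean was -0.042 ± 0.040 (SD, n = 3 arrays) with an adjusted p of 0.112 (limma), and its sign changed with the processing, with 0.12 under median centring and 0.038 from processed signals. The C4a probe, which is listed against C4b transcripts as well, was well above background in neither channel on any array and was not tested. The values of C4b thus rest on the C4b probe alone.

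Serping1 encodes C1 inhibitor. Its signals were 3065, 3016 and 2929 in ES cells, against 3753, 3719 and 3727 in MEF. Before normalization the signals of the groups did not overlap, and the difference was small. How many of all genes separate in this way was not counted. The log2 ratios were -0.48, -0.49 and -0.49, with a mean of -0.49 ± 0.0091 (SD, n = 3 arrays). Serping1 was 1.40-fold lower in ES cells, with an adjusted p of 6.08e-06 (limma), and was not called because it did not reach the fold minimum. Its ratio stayed negative under every alternative run, between -0.49 and -0.22.

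**Figure D2:**
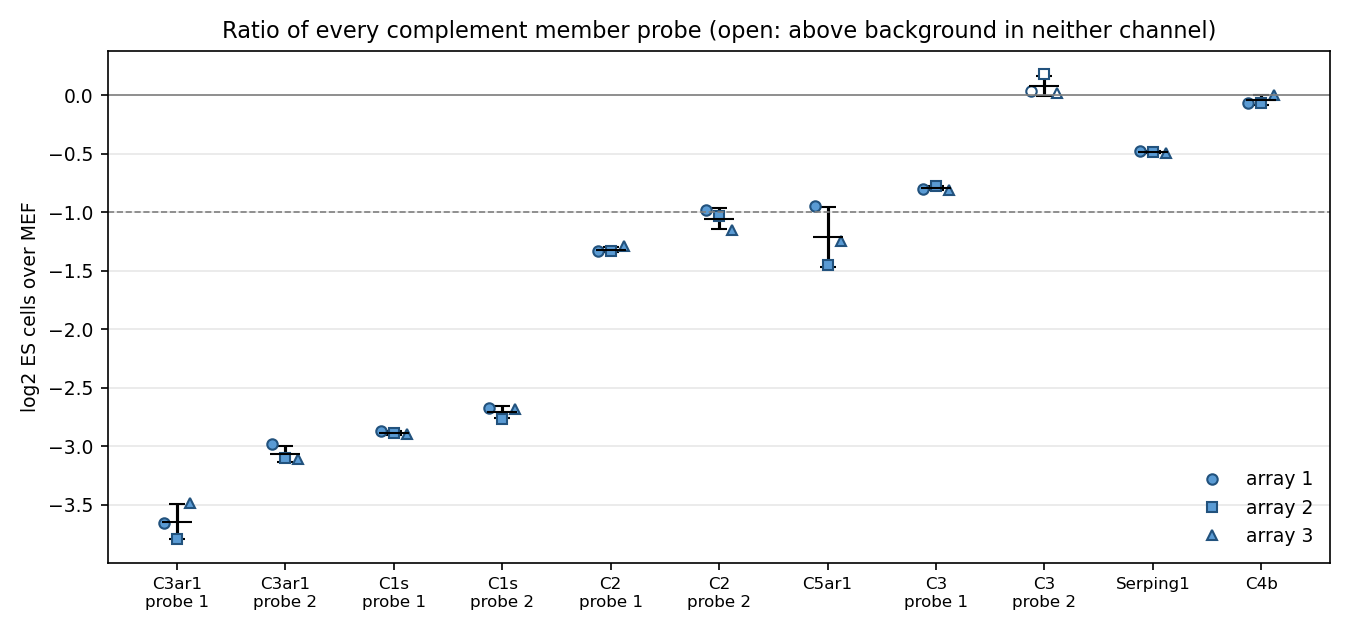
Log2 ratio of ES cells over MEF for each of the 11 probes on arrays 1, 2 and 3 (circle, square, triangle) with the mean and SD of the 3 arrays; the dashed line marks a 2-fold lower level in ES cells. The means of C3ar1 and C1s lie at or below -2.71 by both probes, C5ar1 spreads widest from -1.45 to -0.94, and C4b lies at 0.

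C3ar1 encodes the receptor for the C3 fragment, which is carried by macrophages and other myeloid cells. It had the lowest ratio of the 7 genes. Its brighter probe, on chromosome 6 from 122885185 to 122885244, gave 156, 154 and 175 in ES cells, against 1767, 1815 and 1851 in MEF. The ES cell values were low but well above background on all 3 arrays. The log2 ratios were -3.65, -3.79 and -3.48, with a mean of -3.64 ± 0.15 (SD, n = 3 arrays). C3ar1 was 12.5-fold lower in ES cells (adjusted p = 2.24e-06, limma), and 1.91% of all genes tested had a lower ratio.

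The other C3ar1 probe gave 110, 84.5 and 75.8 in ES cells, not well above background on any array, against 650, 638 and 645 in MEF. It gives a bound of at least 6.03-fold lower in ES cells. For this bound the ES cell level on each array was raised, where lower, to that of the dimmest probe well above background, and the bound is open to dye bias. The measured ratio of this probe was -3.06 ± 0.070. For the brighter probe, processed signals gave -4.38 and the background correction without an offset gave -4.17.

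C5ar1 encodes the receptor for the C5 fragment, also a myeloid receptor. It gave 181, 104 and 101 in ES cells, against 326, 265 and 243 in MEF. MEF was above background on all 3 arrays and ES cells only on array 1, where both channels were brightest. The log2 ratios were -0.94, -1.45 and -1.25, the widest spread of the 7 genes, with a mean of -1.21 ± 0.25 (SD, n = 3 arrays). The fitted difference was 2.32-fold lower in ES cells (adjusted p = 0.000492, limma), with the ES cell level measured above background on 1 of 3 arrays only. The call was lost in a test against a 2-fold change (limma treat, adjusted p = 0.143), while the size grew to -1.75 without the offset and to -2.66 with processed signals, so the fold is not well determined.

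In order of ratio the genes ran C3ar1, C1s, C2, C5ar1, C3, Serping1 and C4b. Each neighbour differed from the next with the same sign on all 3 arrays, except C2 and C5ar1, whose difference was 0.10 ± 0.26 (log2, SD, n = 3 arrays) and whose arrays overlapped. The widest gap lay between C1s and C2, at 1.56 ± 0.038, and the next between C3ar1 and C1s, at 0.76 ± 0.16. With 3 arrays the exact sign-flip permutation test cannot give a two-sided p under 0.25, and it gave 0.25 for every pair of neighbours other than C2 and C5ar1 (p = 0.75). With processed signals C5ar1, at -2.66, stood below C2, at -1.26, so their order depends on the processing.

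Genes with the most similar ratios over the 3 arrays were looked up for both ends of the order. For C3ar1 they were Serpinb6b, at a Euclidean distance of 0.069 over the 3 log2 ratios and a mean of -3.62, and 1600027J07Rik, at a distance of 0.14. The ES cell signal of 1600027J07Rik was above background on no array, so its distance rests on a level known only as a bound, at least 11.1-fold lower in ES cells. For C4b the nearest probes carried sequence names only, at distances of 0.017 and 0.021.

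Macrophage genes were lower in ES cells as well. Of 12 macrophage markers 11 were called lower in ES cells, with a median log2 ratio of -4.85, from Laptm5 at -0.17, which was not called, to the lysozyme gene Lyz2 at -6.18. Averaging all probes of a gene gave -5.16 for Lyz2, with Fcer1g then lowest of these markers at -5.31. The summed level of the 12 markers was 17989 to 18477 in ES cells and 564266 to 597327 in MEF, and none of the 12 was below background in either cell type. Lyz2 alone gave 324263 to 349977 in MEF, so the MEF sum mostly follows that gene. The part of macrophage RNA in the ratios of C3ar1 and C5ar1 was not tested. In such bulk RNA fewer cells of a type and less RNA per cell cannot be told apart.

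Markers of hepatocytes, the main producers of plasma complement, were mostly dim: 5 of 8 were above background in neither cell type on all arrays, 1 was not matched to a probe, and Apoa2 (-0.078) and Apob (0.14) were not called. Of 4 tested endothelial markers 2 were lower and 2 higher, from Emcn at -2.58 (above background in ES cells on 1 of 3 arrays) to Pecam1 at 2.59. Of 5 tested lymphocyte markers 1 was called, Cd79b at 2.97 and thus higher in ES cells, and Cd3e was lowest at -0.22.

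**Figure D3:**
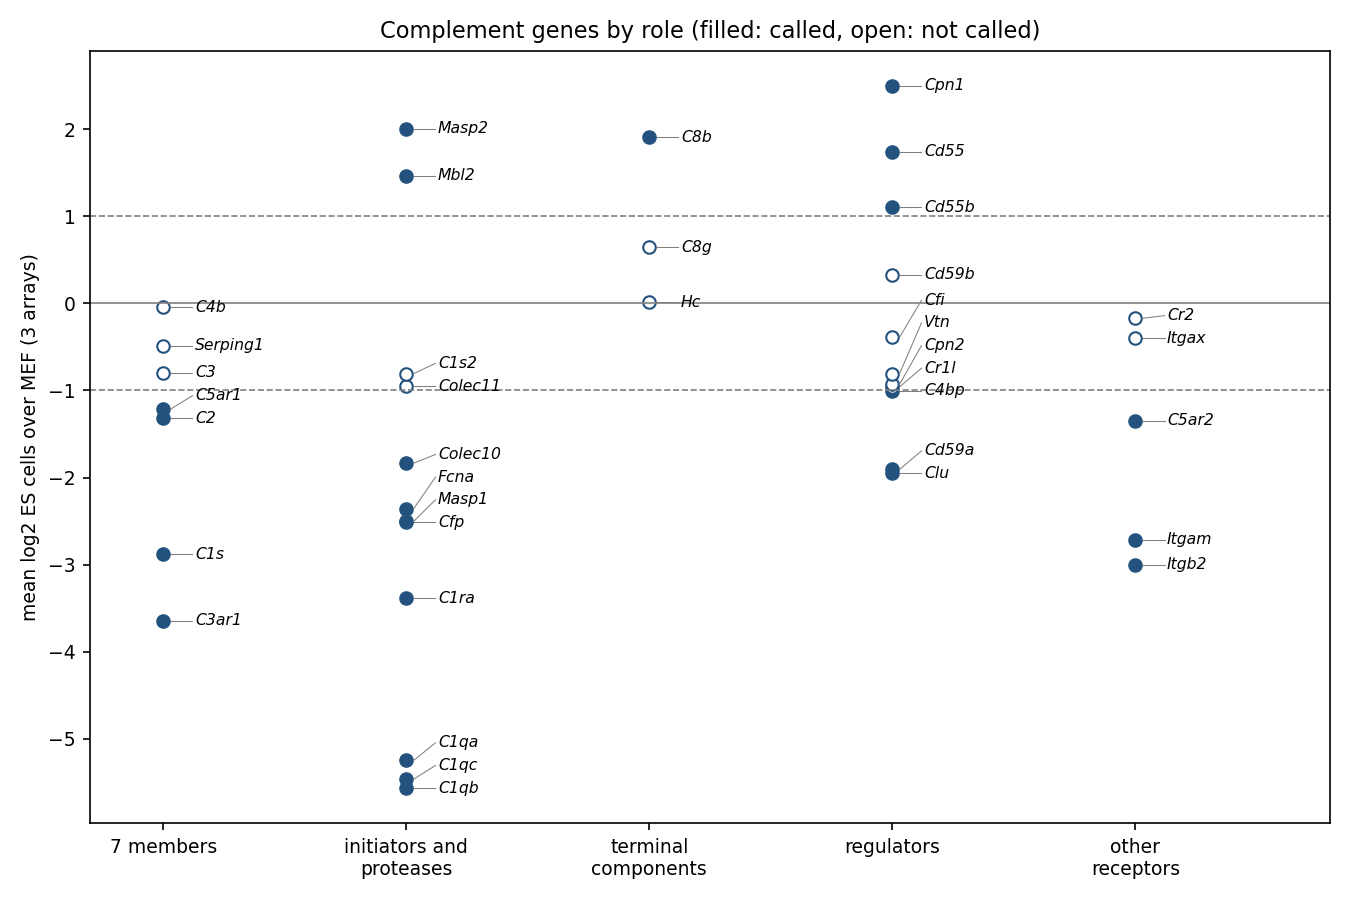
Mean log2 ratio of ES cells over MEF (3 arrays) of the 7 genes and of the 31 tested genes among 43 other complement genes, by role; filled points were called and dashed lines mark 2-fold. The initiators reach from C1qb at -5.57 to Masp2 at 2.01, and the regulators from Clu at -1.95 to Cpn1 at 2.50.

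Of 43 other complement genes listed by role, 31 were tested, 11 had no probe well above background on all arrays in either cell type, and 1 (C1rb) was not matched to a probe. Of those tested 14 were called lower in ES cells and 6 higher, and 11 were not called, with a median of -0.95, beside the 22.4% lower and 20.4% higher of all genes tested. Processed signals gave 19 lower and 6 higher, beside 4681 lower and 5124 higher of all 19488 genes. The authors' deposited table also gave 19 and 6, and the background correction without an offset gave 18 and 6. Among the 12 tested initiators and their proteases 8 were lower and 2 higher, with a median of -2.43.

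The 3 chains of C1q, the recognition part of the classical route and a macrophage product, were lowest: C1qb stood at -5.57 ± 0.055, C1qc at -5.47 ± 0.017 and C1qa at -5.25 ± 0.035 (log2, SD, n = 3 arrays). C1ra, the protease that activates C1s, stood at -3.39 ± 0.064, and -2.96 over all its probes, beside -2.88 for C1s itself. The initiators called higher were Masp2 and Mbl2. Masp2, a C1s-like protease of the lectin route, stood at 2.01 ± 0.039, and 1.52 over all its probes. Mbl2, a mannose-binding lectin, was at least 2.53-fold higher, with no MEF signal above background. Other genes of the lectin route were called lower in ES cells. Masp1, a protease, stood at -2.50 ± 0.012, and -1.33 over all its probes, and the ficolin gene Fcna at -2.36 ± 0.058. The collectin gene Colec10 was at least 3.01-fold lower, with no ES cell signal above background, and its relative Colec11 stood at -0.95 ± 0.057 and was not called. Colec11 was called with processed signals (-1.36) and without the offset (-1.18), so its non-call depends on the processing. Cfb, the relative of C2 in the alternative route, was not above background on all arrays in either cell type.

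Of 11 tested regulators, 3 were called lower and 3 higher, with a median of -0.80, which is near the shares of all genes called in each direction. Clu (clusterin), which binds terminal complexes, stood at -1.95 ± 0.035 and Cd59a, a membrane inhibitor of the terminal complex, at -1.91 ± 0.018, but averaging the probes of Cd59a ended its call (-0.90). C4bp, the soluble protein that binds C4 fragments, lay at the fold minimum at -1.004 ± 0.16 and was above background in ES cells on 1 of 3 arrays. Its call ended under median centring (-0.98), and processed signals gave -2.72.

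The 3 regulators called higher in ES cells were these. Cpn1, the catalytic subunit of the carboxypeptidase that inactivates the C3 and C5 fragments, stood at 2.50 ± 0.011, and 2.17 over all its probes. Cd55, the membrane protein that speeds the decay of C3-cleaving enzymes, stood at 1.74 ± 0.061, and 1.11 over all its probes, while its copy Cd55b was at least 2.12-fold higher.

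Among the terminal components 3 of 7 were tested and 1 was called. C8b was at least 3.21-fold higher in ES cells, with no MEF signal above background on any array. Hc, which encodes C5, stood at 0.016 ± 0.087 and was not called.

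Of 5 other tested receptors 3 were called lower in ES cells and none higher, with a median of -1.35. Of the integrin subunits of the receptors for C3 fragments, Itgb2 was 8.02-fold lower in ES cells. Itgam stood at -2.72 ± 0.037, and -2.41 over all its probes. Itgax stood at -0.40 ± 0.065 and was not called, with ES cells above background on 1 of 3 arrays. With processed signals Itgax was called (-1.05), so its non-call depends on the processing. C5ar2, the other receptor for the C5 fragment, stood at -1.35 ± 0.053, and at -1.48 with processed signals.

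Some of the 7 genes lie near each other. On mm7 the C2 and C4b probes were 0.143 Mb apart on chromosome 17, in the major histocompatibility region, yet C2 was called and C4b was not. C3 lay on the same chromosome, 22.5 Mb from C2. The probes of C1s and C3ar1, the genes of lowest ratio, were 1.67 Mb apart on chromosome 6.

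Promoter windows from RefSeq (build GRCm38.p6, 250 bases before to 50 after the start) were found for 4 of the 7 genes, C3ar1, C1s, C5ar1 and C3, in 5 windows. Each was searched on both strands for the motifs TTCNNNGAA of STAT factors and TTGCNNAA of C/EBP factors. Over 32851 windows of all genes, 8.30% held TTCNNNGAA and 10.8% held TTGCNNAA. TTCNNNGAA was in 0 of the 5 windows. TTGCNNAA was in C3, 45 bases before the start, and in 1 of the 2 windows of C1s, 242 bases before it, and it overlapped no other match.

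Both windows with a match are printed 5′ to 3′ with the match in capitals. A match is a description and not a site shown to be used.
C3, chr17:57228087-57228386, minus strand: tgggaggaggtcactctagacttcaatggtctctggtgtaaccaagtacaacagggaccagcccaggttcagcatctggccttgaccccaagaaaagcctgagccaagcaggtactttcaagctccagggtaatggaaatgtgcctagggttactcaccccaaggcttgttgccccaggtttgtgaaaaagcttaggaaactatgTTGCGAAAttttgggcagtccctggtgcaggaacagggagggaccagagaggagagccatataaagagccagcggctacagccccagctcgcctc
C1s, chr6:124542310-124542609, minus strand: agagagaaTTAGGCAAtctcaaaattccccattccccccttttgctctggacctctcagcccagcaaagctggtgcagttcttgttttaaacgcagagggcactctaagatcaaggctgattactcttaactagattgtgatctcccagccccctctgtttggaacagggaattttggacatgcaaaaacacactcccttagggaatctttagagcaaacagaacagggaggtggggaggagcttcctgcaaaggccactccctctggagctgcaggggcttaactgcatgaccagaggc

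**Figure D4:**
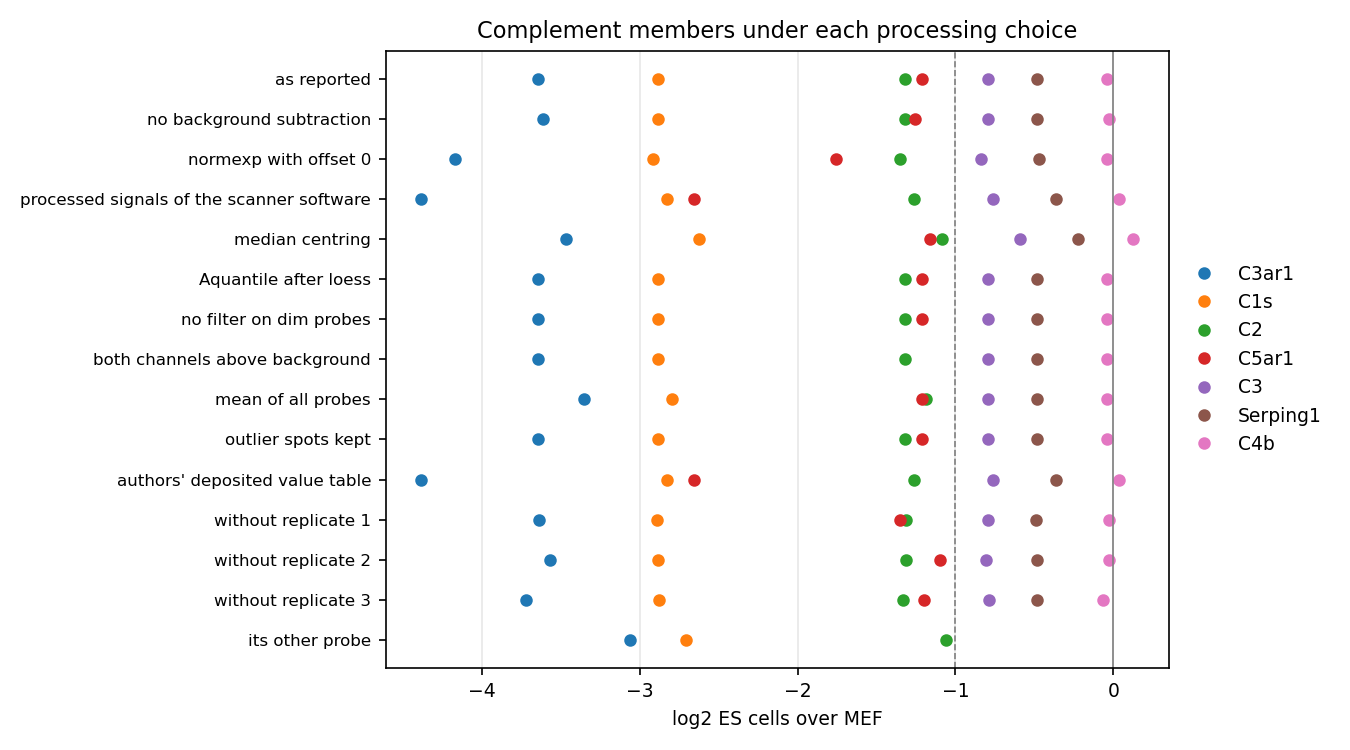
Log2 ratio of ES cells over MEF of the 7 genes (colours) as reported and under each other processing choice (1 line each); the dashed line marks 2-fold. C3ar1, C1s and C2 lie left of the line on every line, C3 and Serping1 right of it, C5ar1 ranges from -2.66 to -1.10 and C4b crosses 0.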

How the data were processed

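The authors read 3 two-colour arrays, of 1 slide and scanned together, with Agilent Feature Extraction 9.5.3.1, per the file headers; probe coordinates use mm7. Slide and scan could thus not be tested as batches. The deposited intensities give each spot's mean and its local background's median, and a processed form that the software had corrected for background and dye; the deposited log10 ratio is MEF over ES cells, per the file headers and labels. The authors' deposited log2 table equals the ES cells over MEF ratio of the processed signals within 0.01 for 99.9% of probes on each array; its column medians of 0.21, 0.086 and -0.14 show no centring.

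Mean signals and median backgrounds were corrected with normexp (offset 50), normalized by loess within arrays without control spots, and turned to ES cells over MEF (limma 3.58.1, R 4.3.3). Outlier spots were dropped before repeated spots were averaged. Names came from accessions through RefSeq (GRCm38.p6) for 22951 probes, from symbols for 10062 and from the file for 8161. Probes well above background in either channel on all 3 arrays were tested (29502), the brightest standing for its gene (19488), with an intercept-only fit and eBayes. Summed levels use channel values after loess and Aquantile. The number of arrays limits precision. The procedure was tested on simulated data in which few probes differed, equally up and down. Far more genes were called here, so that test does not check the loess step for such data.

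The genes, lists (roles, and markers of macrophages, fibroblasts, ES cells, hepatocytes, endothelium and lymphocytes), tests and alternatives were chosen with earlier results of these data known. Named were the 7 genes; up to 3 called genes of lowest and of highest ratio of each role; C4a, C1ra and Cfb; the extremes of each marker list; and the nearest genes of both ends of the order. C1s2, C1rb, Hc, Colec10, Colec11, Masp1, Fcna, Itgax and Pdgfra were named after their values were seen. A regulator is not reported here and was left out of the lists and their counts. Longer promoter motifs searched at first are not reported. Alternatives were other background corrections, normalizations, filters, probe choices, calling rules, the deposited table and leaving out each array.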

Additional observations from a re-analysis of the deposited data

How the results depend on the processing

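The 4 calls and 3 non-calls among the 7 genes were kept under background, normalization and probe alternatives, the deposited log2 table and without each array. Exceptions were C5ar1, which lost its call with limma treat (-1.21, adjusted p = 0.143) and was not tested where both channels had to be above background, and the signs of C4b, at 0.038 with processed signals, 0.12 with median centring and 0.038 with the authors' deposited table. Without the fold minimum C3 (-0.80) and Serping1 (-0.49) passed, and 18600 genes did, 9651 lower and 8949 higher, with 22 other complement genes lower; this follows from dropping that minimum. With both channels above background 3 other complement genes were higher, since fewer were tested. Some alternatives could not move some or all of the 7 genes. Aquantile leaves every ratio as it was, and averaging probes leaves C3, C4b, C5ar1 and Serping1 as they were, with 1 tested probe each. The deposited table nearly equals the ratio of the processed signals, so it adds no separate check. Median centring moved the median of all genes from -0.050 to 0.11 on the log2 scale. Leaving out 1 array gave -1.35 to -1.10 for C5ar1 and -3.72 to -3.57 for C3ar1. Every ratio already pairs ES cells with MEF within 1 array, and no further replicate block could be fitted to 1 ratio per array. Low ES cell signal limits C5ar1 and the dimmer C3ar1 probe.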
